A study of Homo sapiens with 4 samples.

Results

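The transcripts described here are those of 10 genes of the MHC class II pathway, which were found on the arrays by the gene name that the scanner files give each non-control probe. HLA-DRA, HLA-DRB1, HLA-DPA1, HLA-DPB1, HLA-DQA1, HLA-DQB1, HLA-DMA, HLA-DMB, CD74 and CIITA had 23 probes on 32 spots, out of 41000 probes that carry 30499 names. All 23 probes had a value on each of the 4 arrays and were kept apart. Meg-01 is an established human megakaryoblastic leukemia cell line. GATA1 5-13 and GATA1 4-14 are Meg-01 lines that carry a lentiviral GATA1 shRNA and were each grown from 1 soft agar colony after puromycin selection. GATA1 Neg is a pool of Meg-01 cells infected with a lentivirus whose shRNA has little homology to human genes, and its RNA is on every array. No drug treatment is stated for any of them. Each clone was compared with GATA1 Neg on 2 two-colour Agilent whole human genome arrays, with the knockdown RNA in red on replicate 1 and in green on replicate 2. The labels name Meg-01 throughout, except that their extraction text names CMK, another megakaryoblastic line.

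MHC class II molecules are heterodimers of an alpha and a beta chain that display peptides from endosomes to CD4+ T cells. HLA-DR, HLA-DP and HLA-DQ are the classical molecules, CD74 is the invariant chain that occupies their groove on the way to the endosome, and HLA-DM exchanges its remnant for peptide. Transcription of these genes depends on CIITA, a coactivator without DNA binding of its own that docks on the RFX, CREB and NF-Y proteins bound to the X and Y boxes of the promoters. B cells, dendritic cells and macrophages express class II constitutively, and interferon-gamma induces it in many other cells.

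Promoter segments of some members are shown because CIITA docks on proteins bound to the X and Y boxes. By the exact motifs given below, the segments of HLA-DPB1 and CD74 hold a match to the Y box and none to the X box motif. HLA-DQA1, not shown, likewise had a match to the Y box alone, and HLA-DPA1, not shown, had neither match. Boxes spelled with other letters would not be found by this search, so that a missing match does not show that the box is absent. RefSeq promoters of GRCh38.p14 were matched for 8 of the 10 genes (not HLA-DRA and CIITA). The segments run 5′ to 3′ on the strand of the gene, from base -140 to base -11 before its start. Capitals mark the Y box motif CCAAT (written ATTGG where it lies on the other strand) and ACNGATG, the end of the X box.
HLA-DRB1, chr6:32589859-32589988, minus strand: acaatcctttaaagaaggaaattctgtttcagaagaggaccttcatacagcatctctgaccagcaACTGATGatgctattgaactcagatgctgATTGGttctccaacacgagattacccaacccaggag
HLA-DPB1, chr6:33075850-33075979, plus strand: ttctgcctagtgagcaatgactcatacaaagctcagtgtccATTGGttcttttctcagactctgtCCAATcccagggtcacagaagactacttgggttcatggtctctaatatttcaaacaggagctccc
HLA-DQB1, chr6:32666668-32666797, minus strand: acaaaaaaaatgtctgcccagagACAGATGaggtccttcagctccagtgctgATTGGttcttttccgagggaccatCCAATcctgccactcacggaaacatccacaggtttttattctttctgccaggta
HLA-DMA, chr6:32953108-32953237, minus strand: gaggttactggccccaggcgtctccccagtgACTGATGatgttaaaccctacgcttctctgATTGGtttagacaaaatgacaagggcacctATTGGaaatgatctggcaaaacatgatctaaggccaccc
HLA-DMB, chr6:32941039-32941168, minus strand: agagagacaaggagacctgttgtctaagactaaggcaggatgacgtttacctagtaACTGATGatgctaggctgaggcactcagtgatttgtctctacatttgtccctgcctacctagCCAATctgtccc
CD74, chr5:150412921-150413050, minus strand: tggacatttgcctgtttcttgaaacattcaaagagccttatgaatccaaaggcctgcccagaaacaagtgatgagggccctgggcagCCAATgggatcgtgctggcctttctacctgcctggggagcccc

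In the 250 bases before the start, searched on both strands, CCAAT was found in 7 of the 8 genes (not HLA-DPA1) and in 32.0% of 35116 promoters of the table. ACNGATG was found in 5 of the 8 (HLA-DRB1, HLA-DQB1, HLA-DMA, HLA-DMB and CD74) and in 6.35% of all. ACNGATG was added to the search after the sequences were seen. The whole X box consensus was found in 3, HLA-DQB1, HLA-DMA and HLA-DMB, and in 0.0513% of all. The CD74 match to ACNGATG lies farther from the start than the segment shown. GATA sites, spelled AGATAA or AGATAG or either with T as its first letter, were searched together on both strands, and at least 1 was found in HLA-DPA1 and HLA-DPB1 and in 22.3% of all promoters. A match describes these letters only, and no measurement of binding was used.

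The HLA-DR transcripts were higher in both GATA1 knockdown clones than in GATA1 Neg. HLA-DRA, the alpha chain of HLA-DR, was 2.26-fold higher in GATA1 5-13 and 2.69-fold higher in GATA1 4-14, and HLA-DRB1, its main beta chain, was 1.41-fold higher in each. HLA-DP transcripts were higher mainly in GATA1 5-13 and 1 HLA-DQB1 probe mainly in GATA1 4-14, with most of these signals close to background. Those of their probes with GATA1 Neg above background on no array passed it only through a clone, which fixes their direction in advance. CD74 stayed near background in every RNA. HLA-DMA was above background in every RNA, with log2 ratios near 0 in GATA1 4-14. None of these values passed adjustment over all probes, so that they describe 2 clones against 1 control pool.

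At an adjusted p of 0.05 (limma with Benjamini-Hochberg adjustment over 40974 probes), 0 member probes were called, and so were 0% of all probes. At the unadjusted p of 0.005 that the methods of the study use as cutoff, 2 of the 23 member probes, HLA-DRA and HLA-DRB1, were higher in the clones, against 134 probes or 0.327% of all. At an unadjusted p of 0.05 the count was 5 higher and 0 lower among the members, and 1386 higher and 1656 lower among all probes. A ratio above 0 on all 4 arrays was found for 9 member probes and for 12.8% of all probes. A log2 ratio above 1 on all 4 arrays was found for 1 member probe, HLA-DRA, and for 0.0879% of all probes.

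The member probes were dim. The knockdown RNA was well above background (by the scanner's flag) on at least 1 array for 12 of the 23 and GATA1 Neg for 6 of them. For 4 probes (HLA-DRA, HLA-DRB1 and the pair for HLA-DMA) both RNAs were above background on all arrays, and 11 were never above background in either. Over the 23, the median log2 ratio was 0.08 in GATA1 5-13, 0.11 in GATA1 4-14 and 0.14 for the mean of both, beside medians of 0.00 over all probes. Of the 12 probes above background in knockdown RNA on any array, 12 had a ratio above 0 in GATA1 5-13. In GATA1 4-14 there were 10, and 10 in both. These probes were picked by the knockdown RNA, and GATA1 Neg was above background on any array for 6 of them. The choice itself favours ratios above 0, so that these counts describe only. Without that choice, 12 of the 23 member probes and 11437 of all 40974 probes were above 0 in both. No spot was saturated, and 61.6% to 66.4% of spots were well above background per channel. The highest shares, 65.8% and 66.4%, were those of GATA1 5-13 replicate 2. On that array the knockdown RNA of 12 member probes was well above background, against 7, 7 and 6 on the others. Where 1 array alone of GATA1 5-13 had a member's knockdown RNA above background, it was this one. The part of the array in these flags was not tested. GATA1 itself, on a probe measured in both RNAs throughout, had log2 ratios of -0.21 and -0.34 in GATA1 5-13 and -0.43 and -0.58 in GATA1 4-14, with a mean of -0.39 ± 0.16 (SD, n = 2 clones, limma adjusted p = 0.61). Less transcript per cell and fewer cells expressing a transcript cannot be told apart in RNA from whole cultures.

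**Figure D1:**
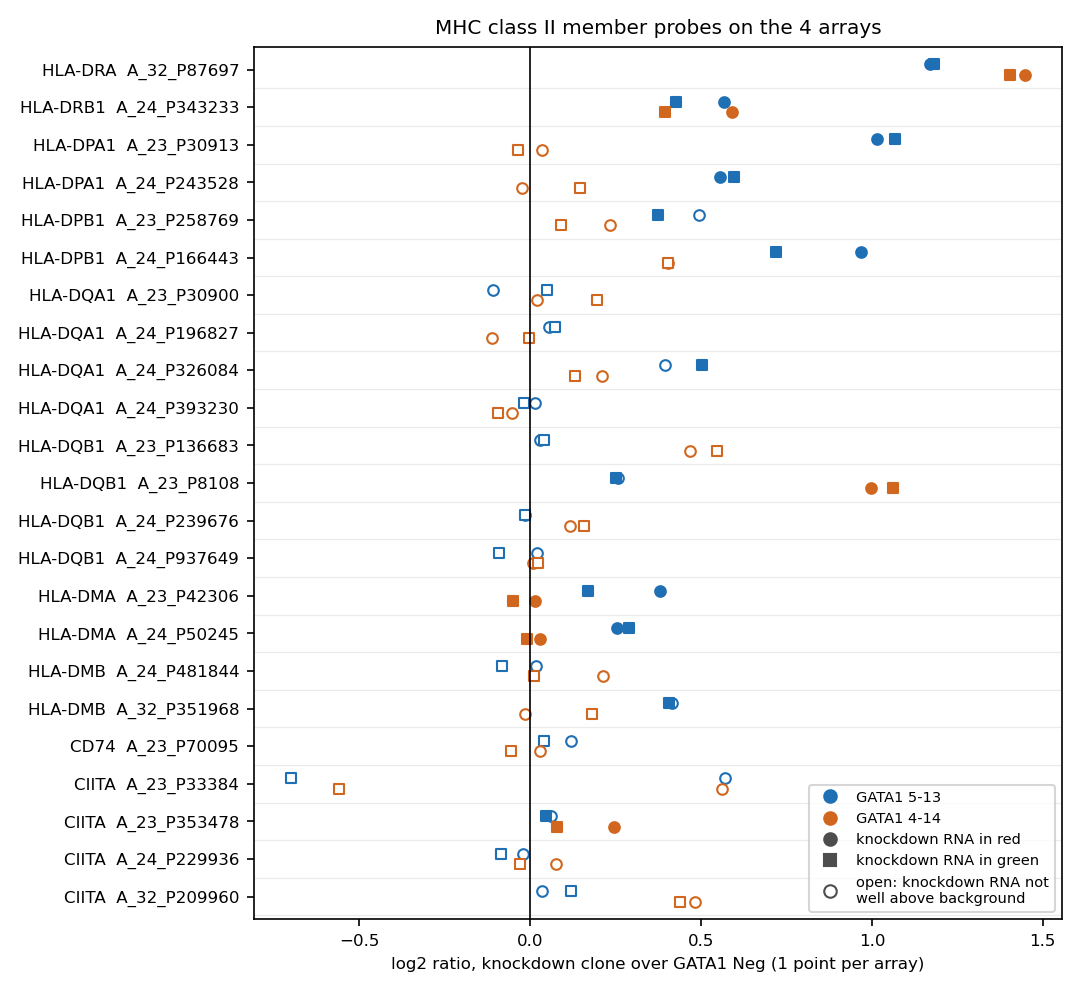
Log2 ratio of knockdown over GATA1 Neg (horizontal axis) for the 23 member probes (rows), 1 point per array, with colour for the clone, shape for the dye of the knockdown RNA, and open symbols where that RNA was not well above background. HLA-DRA lies above 1 on all 4 arrays, HLA-DRB1 between 0.40 and 0.59, and the HLA-DPA1 points part by clone.

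HLA-DRA (probe A_32_P87697, hg18 chr6:32520426-32520485, plus strand) had the largest ratio of the members. Its mean spot intensity in the knockdown RNA was 878 over a local background of 364 on the first array of GATA1 5-13 and 571 over 304 on the second, and in GATA1 4-14 it was 996 over 361 and 609 over 307. In GATA1 Neg on the same arrays it was 386 over 296, 541 over 353, 394 over 302 and 540 over 359. The knockdown RNA therefore stood farther above its background than the control RNA did in both dyes. The log2 ratios were 1.17 and 1.18 in GATA1 5-13 and 1.45 and 1.40 in GATA1 4-14, and the clones did not overlap with each other or with 0. The mean was 1.30 ± 0.18 (SD, n = 2 clones, limma adjusted p = 0.40), the 60th highest of 40974 probes. Without background correction the mean was 0.70 and by the scanner program's own log ratios it was 1.87, and under both the probe was no longer called at 0.005.

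HLA-DRB1 (A_24_P343233, chr6:32656502-32656561, minus strand) was printed on 10 spots of each array. The log2 ratios were 0.57 and 0.43 in GATA1 5-13 and 0.59 and 0.40 in GATA1 4-14. The array with the knockdown RNA in red was the higher one in both clones, and the clone means of 0.50 and 0.49 were nearly equal. Spots of the probe on 1 array had an SD of 0.041 to 0.063. This is the spread of spots that share the same RNAs, and it does not measure variation between clones or cultures. The mean was 0.49 ± 0.0027 (SD, n = 2 clones, limma adjusted p = 0.50). It was no longer called at 0.005 with an intensity trend in the moderation, or at a mean of 0.45 without the first array of GATA1 4-14. The probe is listed with sequence records that are also listed for probes of HLA-DRB3 and HLA-DRB5, so that its signal cannot be assigned to HLA-DRB1 alone.

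The other DR beta genes, which some haplotypes carry beside HLA-DRB1, and the remaining class II genes were a second list of 19 probes for 9 genes. Of these, 5 were higher at an unadjusted p of 0.005 (limma) and 0 were lower, beside 134 probes or 0.327% of all that were higher. The list median was 0.07, and 10 probes were never above background. The count was 3 without background correction, where HLA-DRB3 A_23_P145336 was at 0.25 and HLA-DRB5 A_23_P45099 at 0.31, 2 with the scanner program's log ratios and 8 with the error-weighted mean. HLA-DRB4 (A_24_P370472) had log2 ratios of 1.47 and 1.36 in GATA1 5-13 and 1.28 and 1.20 in GATA1 4-14, close to those of HLA-DRA (mean 1.33 ± 0.12, SD, n = 2 clones, limma adjusted p = 0.38). HLA-DRB5 had means of 1.10 (A_23_P31006, limma adjusted p = 0.38) and 0.79 (A_23_P45099, limma adjusted p = 0.55). HLA-DRB3 was above background in the clones alone and was at least 1.67-fold higher by A_23_P145336 (limma adjusted p = 0.40), while A_24_P402222, at a mean of 0.56, was not called at 0.005. The probes of HLA-DRB4 and HLA-DRB5, with both RNAs above background in each clone, were thus higher in both clones. The HLA-DRB3 probes passed background only through the clones, which fixes their direction in advance. As close paralogs none of these genes can be counted as independent of HLA-DRB1. By the scanner program's log ratios the mean was 2.36 for HLA-DRB4 and 2.20 for HLA-DRB3 A_23_P145336, and these probes and HLA-DRB5 A_23_P45099 were no longer called at 0.005. HLA-DOA, the alpha chain of a molecule that restrains HLA-DM, had a mean of 0.41 ± 0.0078 (SD, n = 2 clones, limma adjusted p = 0.55) on A_24_P354800, and its other 4 probes were below background. The HLA-DOA call was lost with median centring, with an intensity trend, without dim probes and with any of 3 arrays left out in turn. HLA-DOB, its beta chain, had means of 0.25 and -0.04 on its pair of probes, and HLA-DRB6, HLA-DQA2 and HLA-DPB2 were below background on every array.

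**Figure D2:**
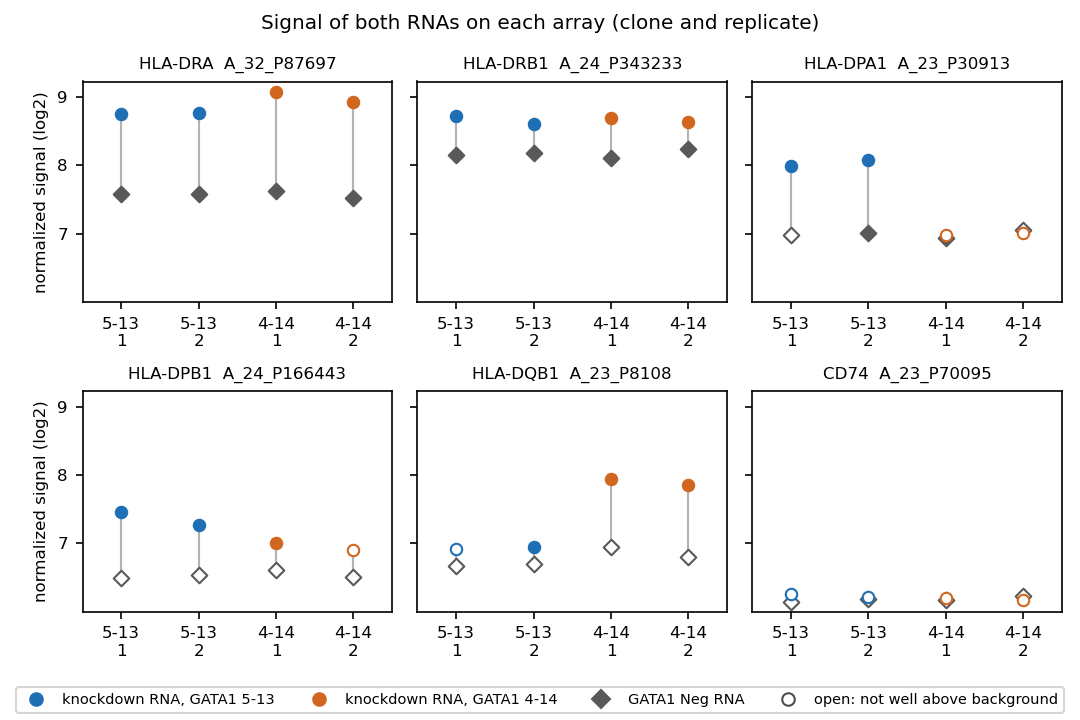
Normalized log2 signal of the knockdown RNA (coloured circles) and of GATA1 Neg (grey diamonds) on each array, by clone and replicate, for 6 member probes, with open symbols where a signal was not well above background and a line joining the RNAs of 1 array. Both RNAs of HLA-DRA and HLA-DRB1 are above background on all 4 arrays, HLA-DPA1 and HLA-DQB1 stand out in 1 clone each, and CD74 is at background. Heights are not comparable between probes.

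HLA-DPA1, the alpha chain of HLA-DP, was higher in GATA1 5-13 and not in GATA1 4-14. Probe A_23_P30913 (chr6:33140826-33140885) had log2 ratios of 1.02 and 1.07 in GATA1 5-13 and 0.03 and -0.04 in GATA1 4-14. In the first array of GATA1 5-13 the knockdown signal was 624 over 365 and GATA1 Neg was 343 over 300, whereas in GATA1 4-14 neither array had the knockdown signal well above background. GATA1 Neg was above background on 1 of the 2 arrays of each clone. The mean over both clones was 0.52 ± 0.74 (SD, n = 2 clones; limma adjusted p = 0.74), a spread larger than the mean. Probe A_24_P243528 (chr6:33145415-33145474), with log2 ratios of 0.56 and 0.60 in GATA1 5-13, was at least 1.44-fold higher there, and both RNAs were below background in the other clone. With 1 sample per clone the difference between the clones was not tested.

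HLA-DPB1, the beta chain of HLA-DP, had ratios above 0 on all 4 arrays on the brighter of its probes, which passed background only through the clones. Probe A_24_P166443 (chr6:33160959-33161565) had log2 ratios of 0.97 and 0.72 in GATA1 5-13 and 0.40 on both arrays of GATA1 4-14. No array had GATA1 Neg well above background, which fixes the direction in advance. On the second array of GATA1 4-14 the knockdown RNA was not above background either, so that no direction can be given there. The lower bounds of the fold were 1.67 in GATA1 5-13 and 1.21 in GATA1 4-14 (limma adjusted p = 0.61). Probe A_23_P258769 had log2 ratios of 0.49, 0.37, 0.23 and 0.09 and a lower bound of 1.11-fold in GATA1 5-13, where 1 array had the knockdown RNA above background. In GATA1 4-14 both RNAs were below background on it, so that no direction can be given there.

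HLA-DQ transcripts were at the limit of the measurement. For HLA-DQA1, the alpha chain, 1 of 4 probes (A_24_P326084) was above background, in GATA1 5-13 on 1 array, with log2 ratios of 0.39 and 0.50 there and 0.21 and 0.13 in GATA1 4-14 (at least 1.21-fold higher in GATA1 5-13). The other 3 HLA-DQA1 probes were below background on all arrays, with means between -0.04 and 0.04. For HLA-DQB1, the beta chain, probe A_23_P8108 had log2 ratios of 0.26 and 0.25 in GATA1 5-13 and 1.00 and 1.06 in GATA1 4-14, the reverse of the HLA-DP order. The lower bound of its fold was 2.04 in GATA1 4-14 and 1.17 in GATA1 5-13 (limma adjusted p = 0.68). The deposited position of this probe, hg18 chr6:32833575-32833634, is 1138 bases from the probe of HLA-DQB2, a paralog, and 91215 bases from the nearest other HLA-DQB1 probe. The HLA-DQB2 probe (A_23_P19510) had the same order of clones, with log2 ratios of 0.12 and -0.02 in GATA1 5-13 and 0.56 and 0.51 in GATA1 4-14, where it was at least 1.45-fold higher. Which of the paralogs the signal of A_23_P8108 came from was not tested. The 3 remaining HLA-DQB1 probes were below background in both RNAs, so that no direction can be given for them. One of them, A_23_P136683 (chr6:32735929-32735988), had log2 ratios of 0.03 and 0.04 in GATA1 5-13 and 0.47 and 0.55 in GATA1 4-14. At background these values cannot be read as an order of the clones.

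HLA-DM and CD74 are the molecules that prepare the classical ones for peptide. HLA-DMA, measured in both RNAs on all arrays, had log2 ratios of 0.38 and 0.17 (A_23_P42306) and 0.25 and 0.29 (A_24_P50245) in GATA1 5-13. In GATA1 4-14 they were 0.01 and -0.05, and 0.03 and -0.01. The means of 0.13 ± 0.21 and 0.14 ± 0.18 (SD, n = 2 clones) had limma adjusted p of 0.79 and 0.76, and both probes had their larger ratios in GATA1 5-13. HLA-DMB probe A_32_P351968 had a lower bound of 1.16-fold in GATA1 5-13, where the knockdown RNA was above background on 1 array, and its other probe was at background. CD74 (A_23_P70095, chr5:149772415-149772474) had knockdown intensities of 381, 312, 377 and 311 over backgrounds of 364, 301, 365 and 302. GATA1 Neg was at 309, 370, 310 and 378 over 301, 360, 302 and 363, so that neither RNA stood above background on any array and no ratio can be read from this probe. CD74 had this 1 probe, and other parts of its transcript were not measured.

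CIITA had small ratios on the 1 probe above background and was not called. Probe A_23_P353478 (chr16:10933540-10933599) was above background in the knockdown RNA on 3 of the 4 arrays, with log2 ratios of 0.06 and 0.05 in GATA1 5-13 and 0.24 and 0.08 in GATA1 4-14 (mean 0.11 ± 0.08, SD, n = 2 clones; limma adjusted p = 0.74). The other 3 probes were below background on every array. Of these, A_32_P209960 had log2 ratios of 0.03, 0.12, 0.48 and 0.44, and A_23_P33384 had 0.57, -0.70, 0.56 and -0.56, which changed sign with the dye in both clones. The class II activator under its older name MHC2TA was not among the names on the array.

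**Figure D3:**
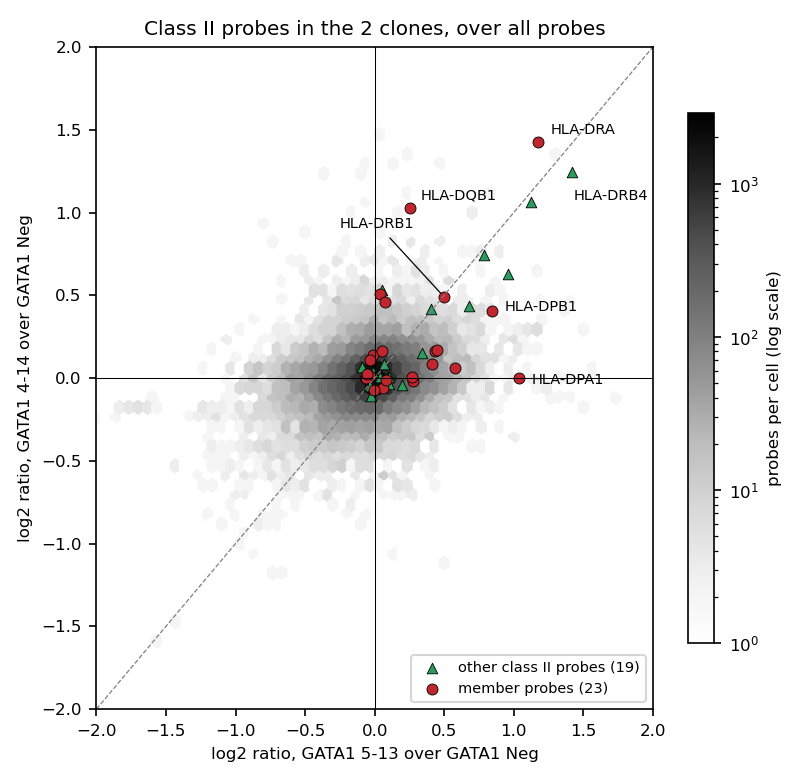
Log2 ratio in GATA1 5-13 (horizontal axis) against that in GATA1 4-14 (vertical axis) for the member probes (red circles) and the other class II probes (green triangles), over the density of all probes within the axis limits (grey, log scale). The DR probes lie along the diagonal, HLA-DPA1 lies at 1.04 and 0.00, and HLA-DQB1 A_23_P8108 at 0.25 and 1.03. Both axes share GATA1 Neg as control.

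The clones can be set side by side for the probes above background, as a description with no test. The log2 ratio of GATA1 5-13 minus that of GATA1 4-14 was -0.25 for HLA-DRA, 0.00 for HLA-DRB1, 0.44 for HLA-DPB1 A_24_P166443, 0.29 and 0.26 for the HLA-DMA probes and -0.78 for HLA-DQB1 A_23_P8108. The largest was 1.04, for HLA-DPA1 A_23_P30913. The control RNA was the same for both clones, so that their values are not independent of each other.

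The regulators of class II transcription did not have a ratio past the cutoff. In a list of 30 genes with 50 probes, which held the RFX and NF-Y subunits, CREB1, the interferon-gamma receptor with its JAK kinases and the IRF factors, 0 probes were called in either direction at an unadjusted p of 0.005 and the median was 0.00. With the error-weighted mean 4 were called. At 0.05 the count was 0 higher and 1 lower. The largest means were those of JAK1, a kinase of the interferon receptors, with -0.49 and -0.46 on its pair of probes (limma adjusted p = 0.62 and 0.68), and of IFNGR2, a chain of the interferon-gamma receptor, with 0.17 in GATA1 5-13 and -0.92 in GATA1 4-14. RFX5, RFXANK and RFXAP, the subunits of the X box factor, were above background on all arrays in both RNAs, with means of -0.02, 0.02 and -0.11. IRF1, a transcription factor that interferon-gamma induces, had a mean of 0.12. These subunits and IRF1 were named after their values were seen, as regulators of class II transcription.

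The antigen processing genes (14 genes, 19 probes) had a median of -0.01, with 0 probes called. IFI30, a lysosomal thiol reductase, had a mean of -0.27, TMEM59 had -0.29, and CTSS, the protease that trims the invariant chain, had 0.53 in GATA1 5-13 and -0.08 in GATA1 4-14. MHC class I genes (21 genes, 44 probes) had a median of -0.03 with 0 called. Among them TAP1, a subunit of the peptide transporter, had means of 0.64 in GATA1 5-13 and 0.33 in GATA1 4-14, and the immunoproteasome subunits PSMB9 and PSMB8 had 0.56 and 0.20, and 0.48 and 0.24 (limma adjusted p = 0.60, 0.67 and 0.63). Co-stimulation genes (10 genes, 15 probes) had a median of 0.00, with CD58 at 0.33 in GATA1 5-13 and 0.06 in GATA1 4-14. CD80, a ligand of CD28, was at least 1.87-fold higher in GATA1 5-13 on A_23_P155632. On A_24_P320033, with both RNAs above background on the GATA1 5-13 arrays, it was 1.71-fold higher. Both CD80 probes were below background in GATA1 4-14.

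TAP1, PSMB8 and PSMB9 lie within the class II region. Between the lowest and the highest position of the HLA member probes, hg18 chr6:32520426-33162396, the array held 28 other probes. Of these, 14 did not carry the name of a class II gene. The sorting was by name alone. AA991488 overlaps the HLA-DRA probe in position, on the other strand, and THC2632039 spans an HLA-DMB probe. Of these 14, 0 were called at an unadjusted p of 0.005. At 0.05, 5 were higher and 0 lower, beside 1386 and 1656 of all 40974 probes. These 5 were TAP1, PSMB8, PSMB9, THC2644875 and M15073. M15073 was below background on every array, and THC2644875 was so in GATA1 4-14. In both clones 8 of the 14 were above 0 and 2 below, beside 11437 and 11694 of all probes. The median of the 14 was 0.10. BRD2, a bromodomain gene between HLA-DMA and HLA-DOA and well above background, had means of -0.12 and -0.05. The second BRD2 probe (A_24_P307014) had log2 ratios of 0.06, -0.09, 0.08 and -0.24, which changed sign with the dye in both clones. A cause shared by the region was not tested.

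**Figure D4:**
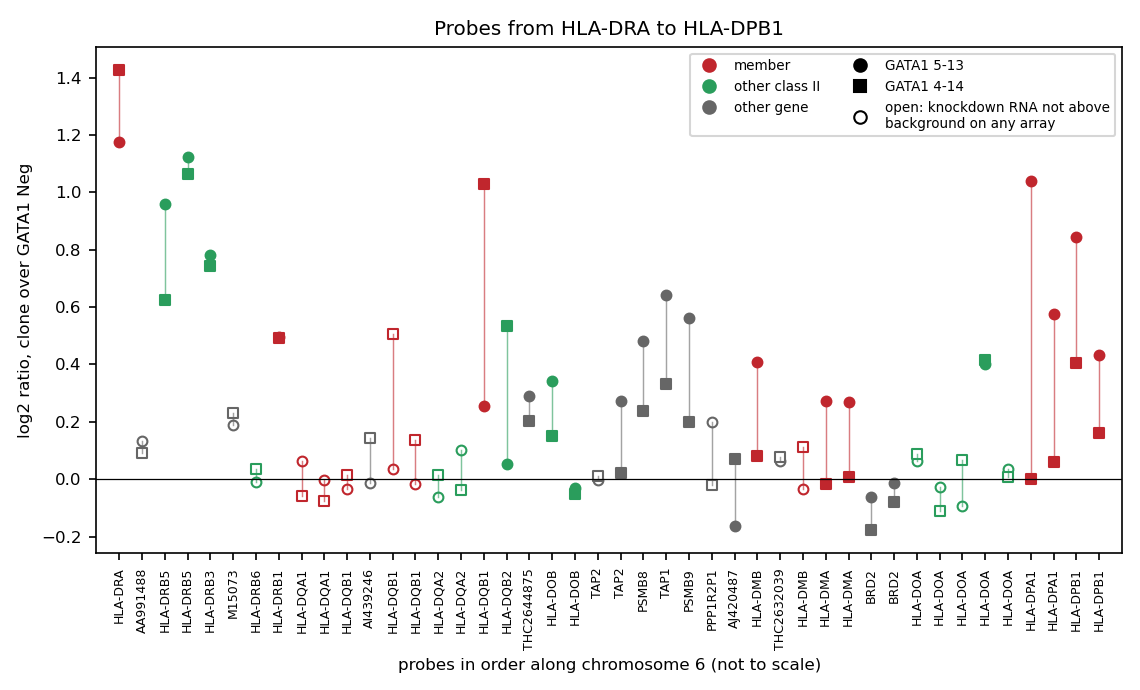
Log2 ratio (vertical axis) in GATA1 5-13 (circles) and GATA1 4-14 (squares) of the member probes on chromosome 6 and the 28 other probes between them, in order of position and not to scale, with open symbols where the knockdown RNA was above background on no array. The highest values lie at HLA-DRA and the DR beta genes, at HLA-DQB1 A_23_P8108 and at HLA-DPA1 and HLA-DPB1, with TAP1, PSMB8 and PSMB9 between 0.20 and 0.64.

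Markers of cells that express class II constitutively were counted beside these values. No probe was called at an unadjusted p of 0.005 among 7 probes for B cells, 8 for dendritic cells, 5 for monocytes and macrophages and 5 for T cells, and the medians were -0.01, 0.01, -0.01 and 0.06. The 0 of the dendritic cell list became 1 with each array left out, and 1 or 2 under some other alternatives. At an unadjusted p of 0.05, 0 probes of that list were higher and 2 were lower. MS4A1, CD22, CD1C, ITGAX, CSF1R and CD163 were above background on no array. CD79A, a B cell receptor subunit, was above background in both RNAs with a mean of 0.07, PAX5 had -0.23, LAMP3 had -0.27 and CD68 had -0.20. FCER1A, a receptor chain of mast cells, basophils and dendritic cells, was lower in both clones, with -1.84 in GATA1 5-13 and -1.08 in GATA1 4-14 (limma adjusted p = 0.56). CD3E had a mean of 0.03, and CD14 A_24_P283189 and CLEC10A A_23_P141508 were below background in both RNAs of 1 clone each. For LYZ the knockdown signal of GATA1 5-13 did not clear background, which leaves a bound of at least 1.51-fold lower, and the log2 ratio in GATA1 4-14 was 0.35. Of 15 probes of megakaryocyte markers, 2 were higher and 9 lower in both clones (median -0.11, 0 called), and 5 of the 15 were never above background. Beside these, 11437 of all 40974 probes were higher and 11694 lower in both clones. ITGA2B was at -0.30, and GP1BA, a platelet adhesion receptor chain, at -1.68 in GATA1 5-13 and -0.16 in GATA1 4-14. The part of any of these in the class II values was not tested.

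**Figure D5:**
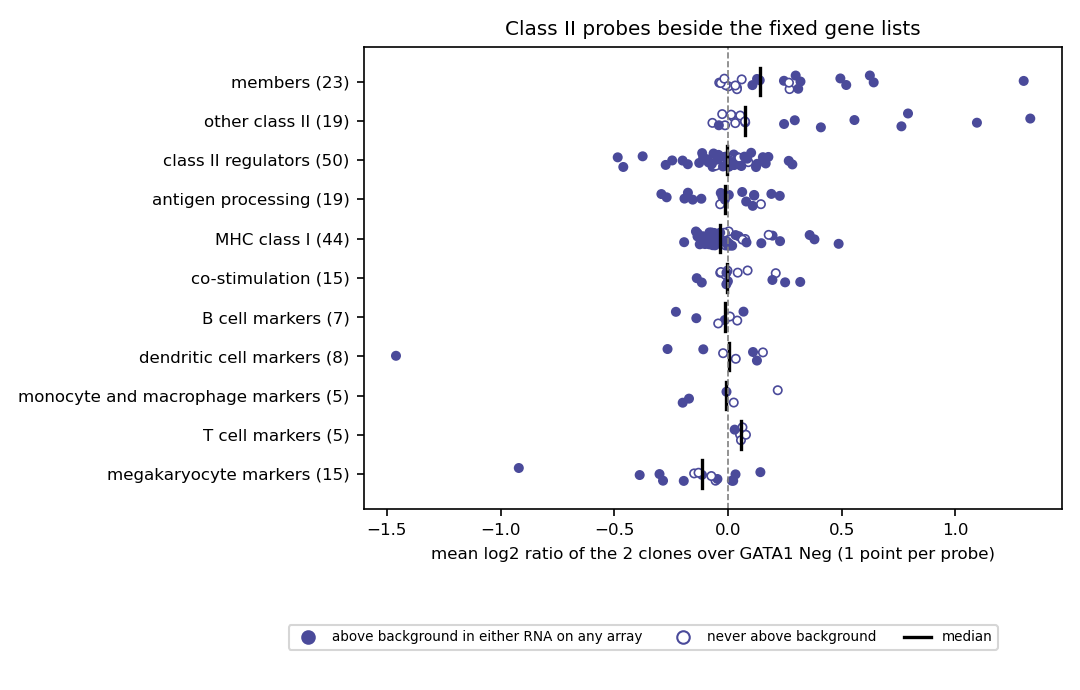
Mean log2 ratio of both clones over GATA1 Neg (horizontal axis), 1 point per probe, for the members and the other gene lists (rows, number of probes in parentheses), with a black bar at the median and open symbols for probes never above background. The member and other class II rows reach 1.30 and 1.33, and the medians of the other lists lie between -0.11 and 0.06.

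The 5 probes elsewhere on the array most like the members were sought by the mean absolute difference over the 4 arrays from the median ratios of the 4 member probes above background throughout (0.47, 0.36, 0.31 and 0.19). They were DENND2C, LIMA1, LOC400451 (now FAM174B), LOC650200 and UCP2, out of 23955 candidates, with mean differences of 0.012 to 0.027. Their own means were 0.31 to 0.33. The profile they follow is that of the median of HLA-DRA, HLA-DRB1 and HLA-DMA, and not of HLA-DRA alone.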

How the data were processed

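The authors deposited scanner output of 4 two-colour arrays (Agilent Feature Extraction 9.5.3.1, positions on hg18, 1 slide). The mean spot intensity and median background of each channel were deposited without correction. The deposited log10 ratios are background-subtracted and dye-normalized by that program; their errors, a score of that program's error model, were deposited beside them, and the value table deposited for all samples repeats those log10 ratios with the knockdown RNA in the numerator (largest difference 4.975e-06). Flags for signal above background, outliers and controls were deposited with each spot.

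Log2 ratios were computed with limma 3.58.1 (R 4.3.3, data.table, version 1.17.8). Normexp used an offset of 50, and loess was run within arrays with control spots at weight 0. Outlier spots were left out, spots of a probe averaged, and the 2 arrays of a clone, a dye swap of the same RNAs, averaged to 1 replicate. The mean of 2 clones was tested against 0 (moderated, two-sided, Benjamini-Hochberg adjustment over 40974 probes), and the code was tested on simulated data. How much GATA1 Neg varies was not measured, and nothing states separate cultures. Where 1 RNA was not well above background on a clone's arrays, the fold is a bound ("at least"), against the higher of the dim signal and the lowest signal well above background. Bounds per channel are open to dye bias.

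The members and lists were chosen with earlier results of these data known. Named were all class II probes, up to 3 of the largest ratios per list above background, and the 5 nearest probes. Names are those of the array. RefSeq symbols were matched for 17061 of 18035 RefSeq accessions (94.6%). Alternatives were other background corrections and normalizations, a filter on dim probes, outliers kept, an intensity trend, 4 arrays as 4 values, an error-weighted mean, and arrays or clones left out. The combination in Rosetta Resolver could not be repeated.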

Additional observations from a re-analysis of the deposited data

Results flagged for a closer look

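Listed here are 4 probes outside the member genes for which both arrays of 1 clone had the opposite sign from both arrays of the other. The difference between the clones was not tested for any of them. Probes below background in both RNAs of a clone, such as those of CD80 in GATA1 4-14, are not listed. IFNGR2 (A_23_P29036) stood at 0.17 (log2 ratio) for GATA1 5-13 and at -0.92 for GATA1 4-14, a difference of 1.09. CTSS (A_23_P46141) had 0.53 and -0.08, a difference of 0.61. LYZ (A_24_P42264) had fitted ratios that differed by -1.04, but in GATA1 5-13 it was at least 1.51-fold lower with the knockdown RNA not above background, so that the difference has no measured size. The unnamed transcript AJ420487 (A_32_P97739), between PSMB9 and HLA-DMB, had -0.16 and 0.07, a difference of -0.23.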

How the results depend on the processing

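The count of member probes at an unadjusted p of 0.005 was 2, and it was 1 without background correction, with the scanner program's log ratios, with the deposited value table and with an intensity trend, 9 with the error-weighted mean, and 1 to 2 with an array left out (1 without GATA1 4-14 replicate 1, where HLA-DRB1 was not called). At an adjusted p of 0.05 it was 0, against 3 with the 4 arrays as 4 values without a block (1.23% of all probes higher), 2 with the replicate number as a block (0.249%) and 9 with the error-weighted mean (4.02%). The replicate number is the dye orientation, and replicate 1 minus replicate 2 correlated between the clones (r = 0.77 over 40974 probes). The number of probes with a mean above 0 was 19 of 23, 17 with the scanner program's log ratios, the deposited value table and the error-weighted mean, 18 without GATA1 4-14 replicate 1 and without clone GATA1 5-13, 16 without clone GATA1 4-14, and 4 of the 4 that a filter on dim probes left. Of the lists with 0 called, the error-weighted mean called 4 probes of class II regulators, 4 of MHC class I, 3 of megakaryocyte markers, 3 of the region probes without a class II name, 2 of co-stimulation and 2 of dendritic cell markers. The 4 arrays as 4 values without a block called 1 to 4 in these and in the antigen processing and monocyte lists, and an intensity trend called 1 of the region. The median of 0.14 was 0.061 without background correction, 0.17 with an offset of 16, 0.32 with the scanner program's log ratios, the deposited value table and the filter on dim probes, 0.30 with the error-weighted mean, 0.11 without clone GATA1 5-13, 0.079 without clone GATA1 4-14, and 0.13 to 0.25 with an array left out. Over these settings HLA-DRA lay between 0.70 and 1.87 and HLA-DRB1 between 0.27 and 0.65, with limma adjusted p from 0.0014 and 0.013 to 0.57 (error-weighted mean, 7.3e-38 and 3.5e-07). The sign changed for HLA-DOB A_24_P911788 (0.0036 without background correction, 0.038 error-weighted, and -0.097 to 0.017 with an array left out), and, without clone GATA1 5-13, for HLA-DPA1 A_23_P30913 (-0.00036) and HLA-DMA A_23_P42306 (-0.018). Adding the 50 bases after the start changed none of the 3 counts of members with a Y box, an X box consensus or a GATA site. The causes were not tested. Low signal over background limits 11 of the 23 probes to no direction, and the number of arrays and of clones limits the precision.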
